A study of Homo sapiens with 9 samples.

Results

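The 40 genes described here build the vesicles that run between the endoplasmic reticulum (ER) and the Golgi and return escaped ER proteins. The rule names them by function, and the set was proposed with earlier results of these data known. It holds 12 genes of the COPII coat, 3 KDEL receptors, 7 cargo receptors, 8 genes of the p24 family, 7 subunits of the COPI coat, and 2 ARF GTPases with 1 golgin. Of the 40, 39 were measured among 18239 genes, each by the probe set with exactly 1 gene symbol and the highest mean over all arrays. KDELR2, one of the KDEL receptors, was not analysed here.

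The arrays held RNA of K562, an established human leukaemia line of erythroid character, transduced with 1 of 3 forms of calreticulin (CALR): wild type, Del52 or Ins5. All 3 groups had been infected with retroviral supernatant on retronectin-coated plates and selected for the NGFR surface marker, so the controls were transduced cells that carried wild-type CALR and not untouched K562. The labels number 3 arrays in each group and do not say whether these came from separate transductions or cultures, so every p-value measures only the spread between these arrays, which may be technical. By its title, the study asked how mutant CALR bears on the unfolded protein response and on oxidative stress.

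COPII-coated vesicles leave the ER: the GTPase SAR1, loaded by PREB, draws the SEC23 and SEC24 inner coat and then the SEC13 and SEC31 outer coat to exit sites organised by SEC16A. COPI-coated vesicles, whose coat ARF GTPases recruit, travel back. KDEL receptors catch soluble ER proteins that end in the KDEL signal and have reached the Golgi, and COPI vesicles return them. Wild-type calreticulin carries that signal, and the Del52 and Ins5 frameshifts replace the end of the protein and remove it.

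The deposited values are log2 levels, normalized by the authors, and a level of 1 gene is not set against that of another. All 39 genes lay above the median gene level (4.31), between 4.53 for SEC24D and 9.94 for ARF1. The mean of 33 genes exceeded the highest of the 23 antigenomic control probe sets (6.52). SEC24D, PREB, KDELR3, ERGIC1, TMED1 and GOLGA5 did not, so their levels may hold a share of background. Of the K562 and erythroid markers, 8 of 9 measured lay above that control (not EPOR), as did LYZ among 12 markers of other blood cells and EPCAM, KRT8, KRT18 and KRT19 among 11 fibroblast and epithelial markers. CALR read 7.57 in wild type, 7.42 in Del52 and 7.40 in Ins5, and NGFR 3.36 to 3.43. Where those probes lie relative to the constructs is unknown, so neither gene checks the labels. Wild-type arrays 2 and 3 stood apart: they correlated least of any pair over all genes (0.974) and held the lowest and highest score on the first principal component, which took up 70.5% of the variance.

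No gene of the set passed the test against wild type, and none differed between the mutants by the test. In limma with Benjamini-Hochberg adjustment over all genes, 0 of 39 reached an adjusted p of 0.05 in any comparison or in the F test over the 3 groups, and 0 of 18239 genes did (0%). The smallest adjusted p among the 39 was 0.603 for Del52 against wild type, 0.466 for Ins5 against wild type and 0.841 for Del52 against Ins5. Without adjustment, 5 of the 39 had a p under 0.05 in Del52, where 7.05% of all genes did. All 5 were lower than wild type, where 2.95% of all genes were lower at that level. In Ins5, 8 of the 39 had such a p, where 7.41% of all genes did, and all 8 were lower, where 2.25% of all genes were. With the mutants averaged and set against wild type, 8 had such a p and were lower, where 2.91% of all genes were, and 0 were higher, where 5.07% were. The F test gave 8 of the 39, where 7.23% of all genes had such a p.

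The levels leaned to the lower side in both mutants, by small amounts. In Del52, 30 of 39 genes were lower than wild type and 9 were higher, with a median difference of -0.09. Among all genes, 45.4% were lower with a median of 0.01, and among genes above the median level 46.6% were. In Ins5, 35 of 39 were lower and 4 higher, with a median of -0.11, where 40.4% of all genes and 41.8% of those above the median level were lower. Both comparisons used the same 3 wild-type arrays and are not independent of each other. In these bulk samples, fewer cells expressing a gene and less RNA per cell cannot be told apart.

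**Figure D1:**
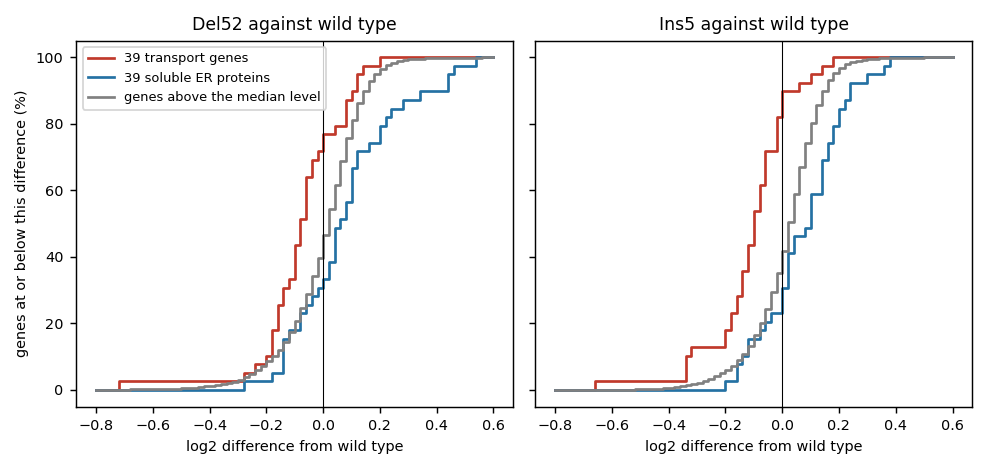
Share of genes (vertical axis, percent) at or below each log2 difference from wild type (horizontal axis) for Del52 and Ins5. At 0 the curve of the 39 transport genes stands at 76.9% and 89.7%, that of genes above the median level at 46.6% and 41.8%, and that of 39 soluble ER proteins at 33.3% and 30.8%; the curves cross in the lower tail.

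Separation of the arrays gave a like picture. Every Del52 array lay below every wild-type array for 7 genes (SEC23A, SEC24A, SEC24D, SEC31A, KDELR1, COPB2 and ARF1), where 4.36% of all genes did so. Every Ins5 array lay below for 5 genes (SEC23A, SEC24D, PREB, COPB2 and ARF1), where 3.3% of all genes did. No gene of the 39 had every mutant array above every wild-type array in either comparison, where 6.23% and 8.16% of all genes did. All 6 mutant arrays lay below all 3 wild-type arrays for 4 genes, SEC23A, SEC24D, COPB2 and ARF1, and for 1.26% of all genes, and they lay above for none of the 39 and for 2.76% of all genes.

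Wild-type array 3 carried part of this lean. Each array was summarised by the median, over the 39 genes, of the deviation from the 9-array mean. The wild-type arrays stood at 0.08, -0.01 and 0.11, the Del52 arrays at -0.01, -0.03 and -0.03, and the Ins5 arrays at -0.07, 0.01 and -0.09. Wild-type array 2 therefore lay inside the range of Ins5, and arrays 1 and 3 above both mutants. Without wild-type array 3, 28 genes were lower in Del52 and 30 in Ins5, with medians of -0.05 and -0.07, while 50.5% and 49.0% of the genes above the median level were lower. Without wild-type array 2 the medians were -0.12 and -0.13, and the genes at an unadjusted p under 0.05 numbered 13 in Del52, of which 11 were lower, and 16 in Ins5, of which 15 were lower. Over all genes, 4.10% and 3.32% were then lower at that level. Leaving out Del52 array 2, Del52 array 3 or wild-type array 1 left 3 such genes in Del52, all lower, where 2.31%, 2.29% and 2.40% of all genes were. Leaving out Ins5 array 1 left 5 in Ins5, all lower, where 1.45% of all genes were.

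The COPII coat held the gene with the largest difference from wild type and the gene with the smallest p. Of its 12 genes, 9 were lower in Del52 (median -0.11) and 12 in Ins5 (median -0.14), and none passed the test. The median deviation over the 12 was 0.11, -0.01 and 0.16 in the wild-type arrays, -0.02, 0.02 and -0.03 in Del52, and -0.09, 0.04 and -0.12 in Ins5, so wild-type array 2 overlapped with both mutants.

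SEC23A, the inner-coat subunit that activates the SAR1 GTPase, was the gene with the smallest p against wild type in both mutants. Its wild-type arrays read 7.19, 7.09 and 7.00. The Del52 arrays read 6.78, 6.75 and 6.90, and the Ins5 arrays 6.67, 6.80 and 6.74. Every mutant array was below every wild-type array. The difference was -0.28 ± 0.07 (SE, n = 3 a group) for Del52, adjusted p = 0.603 by limma, and -0.36 ± 0.07 for Ins5, adjusted p = 0.466. Its other 3 probe sets were also lower in both mutants, with differences of -0.07 to -0.29 in Del52 and -0.18 to -0.41 in Ins5. Its paralog SEC23B read 7.25 ± 0.27 (SD) in wild type, 7.22 ± 0.14 in Del52 and 7.18 ± 0.14 in Ins5, differences well inside the spread of the wild-type arrays.

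The 4 SEC24 genes encode the subunit that selects cargo. SEC24A read 6.86 ± 0.15 (SD) in wild type, 6.66 ± 0.04 in Del52 and 6.53 ± 0.18 in Ins5, with differences of -0.20 (adjusted p = 0.770 by limma) and -0.33 (adjusted p = 0.588). Its Del52 arrays lay below all wild-type arrays, and 1 Ins5 array overlapped with them. Its second probe set, below the highest antigenomic control, gave -0.17 in Del52 and -0.36 in Ins5. Every mutant array lay below every wild-type array there, and every Ins5 array below every Del52 array. The dimmer probe sets gave -0.07 and -0.10 in Del52 and -0.16 and 0.07 in Ins5, overlapping with wild type. None passed the limma test over all probe sets. SEC24B differed from wild type by -0.10 in both mutants. SEC24C differed by -0.11 in Del52 and -0.14 in Ins5, with all 3 groups overlapping for both genes.

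SEC24D had the largest difference of the 39 genes and the lowest level. Wild-type arrays read 4.93, 4.69 and 5.38, Del52 arrays 4.52, 4.49 and 3.79, and Ins5 arrays 4.15, 4.42 and 4.43. All mutant arrays lay below all wild-type arrays, and Del52 array 3 was the lowest of the 9. The difference was -0.73 ± 0.24 (SE) for Del52 (adjusted p = 0.609 by limma) and -0.67 ± 0.24 for Ins5 (adjusted p = 0.622). Without Del52 array 3 the Del52 difference was -0.49. Its second probe set, dimmer still, differed by 0.06 in Del52 and 0.0031 in Ins5, so these 2 probe sets did not share a direction. The last of its 3 probe sets differed by -0.09 in Del52 and -0.13 in Ins5.

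SEC31A, the outer-coat subunit, read 7.93, 7.74 and 7.87 in wild type, 7.71, 7.68 and 7.67 in Del52, and 7.59, 7.81 and 7.69 in Ins5. The Del52 arrays clustered tightly below the wild-type arrays, and Ins5 array 2 lay inside the wild-type range. The difference was -0.16 ± 0.07 (SE) for Del52 (adjusted p = 0.709 by limma) and -0.15 ± 0.07 for Ins5 (adjusted p = 0.682). The second SEC31A probe set, below the highest antigenomic control, gave -0.09 in Del52 and -0.42 in Ins5. Every Ins5 array lay below every wild-type and every Del52 array there, so the 2 probe sets differ on how the mutants compare. SEC13, its partner, differed by -0.16 in Del52 and -0.14 in Ins5 and overlapped throughout. SEC16A, the exit-site scaffold, differed by -0.10 and -0.02. The GTPases SAR1A (0.10 and -0.01) and SAR1B (0.09 and -0.01) were slightly higher in Del52 and level with wild type in Ins5.

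PREB, the exchange factor that loads SAR1 with GTP, separated the mutants from each other. It read 5.74, 5.71 and 5.82 in wild type, 5.88, 5.81 and 5.77 in Del52, and 5.55, 5.65 and 5.58 in Ins5. The Ins5 arrays were the 3 lowest of the 9, and Del52 overlapped with wild type. Del52 exceeded Ins5 by 0.23 ± 0.05 (SE), the smallest p of the 39 genes in that comparison (adjusted p = 0.841 by limma). Ins5 differed from wild type by -0.16 ± 0.05 (adjusted p = 0.588) and Del52 by 0.06 (adjusted p = 0.893). A second PREB probe set gave a difference of 0.21 between Del52 and Ins5, with no overlap.

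**Figure D2:**
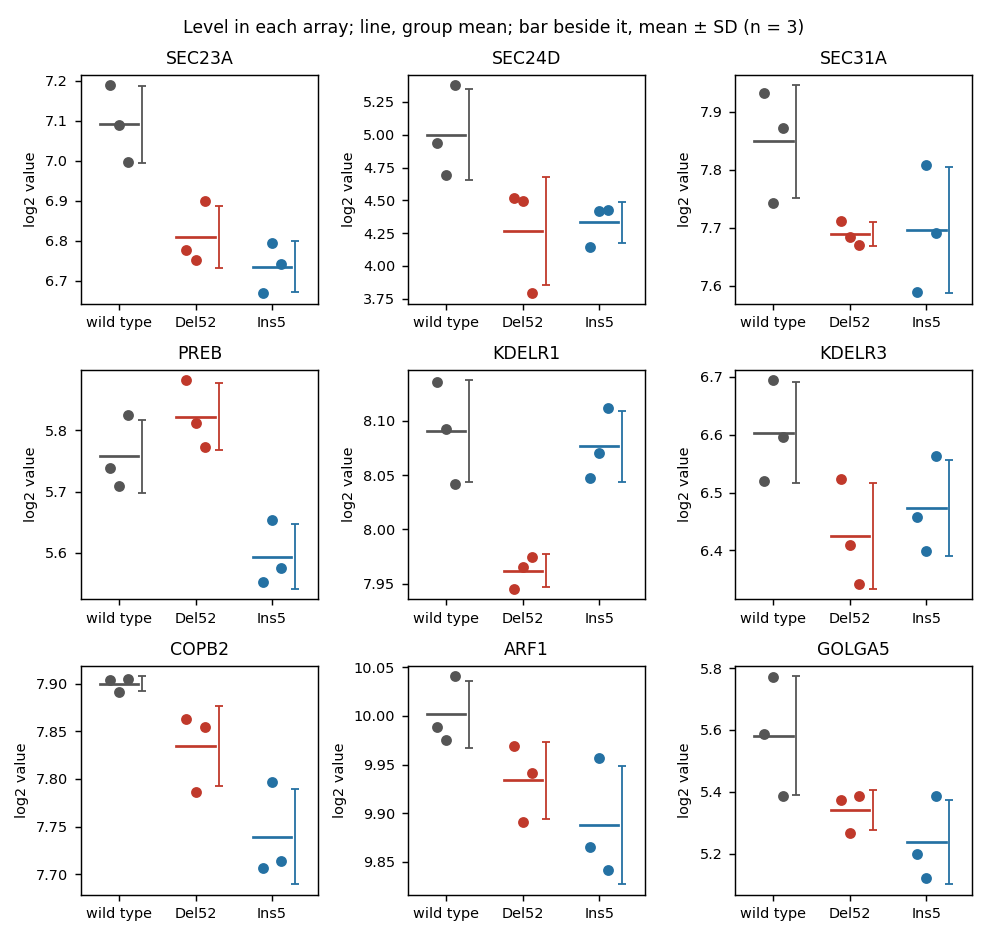
Log2 level (vertical axis) of 9 genes in each array, by group; horizontal lines are group means and the bars beside them mean ± SD (n = 3). SEC23A, SEC24D, COPB2 and ARF1 have all mutant arrays below all wild-type arrays, KDELR1 is lowest in Del52 and PREB lowest in Ins5; each panel has its own scale.

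The KDEL receptors are the sensors of retrieval. KDELR1, the broadly expressed member, read 8.14, 8.09 and 8.04 in wild type, 7.95, 7.97 and 7.97 in Del52, and 8.05, 8.07 and 8.11 in Ins5. The Del52 arrays were the 3 lowest of the 9 and lay within 0.03 of each other, and Ins5 lay inside the wild-type range. Del52 differed from wild type by -0.13 ± 0.04 (SE; adjusted p = 0.606 by limma) and from Ins5 by -0.11 ± 0.04 (adjusted p = 0.841). Ins5 differed from wild type by -0.01, with a 95% interval from -0.11 to 0.08. The other 2 KDELR1 probe sets did not single out Del52: their differences from wild type were -0.06 and -0.07 in Del52 and -0.05 and -0.11 in Ins5.

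KDELR3 read 6.52, 6.69 and 6.60 in wild type, 6.52, 6.41 and 6.34 in Del52, and 6.46, 6.40 and 6.56 in Ins5. Both mutants reached lower than wild type and overlapped with it by 1 array each. The difference was -0.18 ± 0.07 (SE) for Del52 (adjusted p = 0.667 by limma) and -0.13 ± 0.07 for Ins5 (adjusted p = 0.758). Its second probe set ran the same way, with -0.43 and -0.34.

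Cargo receptors load finished glycoproteins at the ER and showed no shared direction in Del52, where 3 of 7 were lower (median 0.03). In Ins5 5 of 7 were lower (median -0.03). LMAN1, the lectin that carries clotting factors together with MCFD2, had the largest difference of the 7 in Ins5. Its wild-type arrays read 7.58, 7.31 and 7.67, the Del52 arrays 7.33, 7.40 and 7.31, and the Ins5 arrays 7.13, 7.33 and 7.06. By this probe set, wild-type array 2 overlapped with both mutants. LMAN1 differed by -0.17 ± 0.10 (SE) in Del52 (adjusted p = 0.813 by limma) and -0.35 ± 0.10 in Ins5 (adjusted p = 0.573). Without wild-type array 2 the differences were -0.28 and -0.45. Of its 6 probe sets, 5 were lower in Del52 and 6 in Ins5. Those ranked 4 and 5 by mean level had every mutant array below every wild-type array. They lay below the highest antigenomic control and gave -0.41 and -0.36 in Del52 and -0.56 and -0.49 in Ins5. The second was separated in Del52 only (-0.30), and the dimmest was higher in Del52 without overlap (0.11). None passed the limma test over all probe sets.

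MCFD2, the partner of LMAN1, differed from wild type by -0.05 in Del52 and -0.03 in Ins5. LMAN2, a lectin of the same family, was the steadiest gene of the set, with a range of 0.10 over the 9 arrays, and differed by 0.03 and 0.04. SURF4, the receptor for many soluble cargoes, differed by -0.06 and -0.10. Its other 5 probe sets, all above the highest antigenomic control, gave -0.01 to 0.04 in Del52 and -0.23 to -0.12 in Ins5. Each of those 5 had every Ins5 array below every wild-type and every Del52 array, and none passed the limma test over all probe sets. ERGIC1 (0.20 and -0.02), ERGIC2 (0.07 and -0.12) and ERGIC3 (0.08 and 0.17), proteins of the ER-Golgi intermediate compartment, varied widely within groups and overlapped in every comparison.

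The p24 proteins, named TMED, are cargo adaptors of both coats. By the probe set with the highest mean, 6 of the 8 lay below wild type in each mutant, with medians of -0.04 in Del52 and -0.09 in Ins5. None of the 8 had an unadjusted p under 0.05 by these probe sets. TMED3 had the smallest p, at -0.14 ± 0.07 (SE) in Ins5 (adjusted p = 0.717 by limma) and -0.08 in Del52. TMED5 (-0.10 in Del52 and -0.18 in Ins5), TMED10 (-0.06 and -0.11), TMED2 (-0.02 and -0.09), TMED9 (-0.06 and -0.08) and TMED7 (-0.01 and -0.07) were the other 5 below wild type. TMED1 was higher by 0.13 in Del52 and 0.12 in Ins5, and TMED4 by 0.10 and 0.09. By the same probe sets, all 8 were higher in Del52 than in Ins5, by 0.0015 to 0.08, amounts inside the spread of the arrays. In 1 further probe set each of TMED2 (0.24), TMED3 (0.10) and TMED7 (0.26), every Del52 array lay above every Ins5 array. That of TMED2 also had every Ins5 array below every wild-type array (-0.21). None of these passed the limma test over all probe sets.

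**Figure D3:**
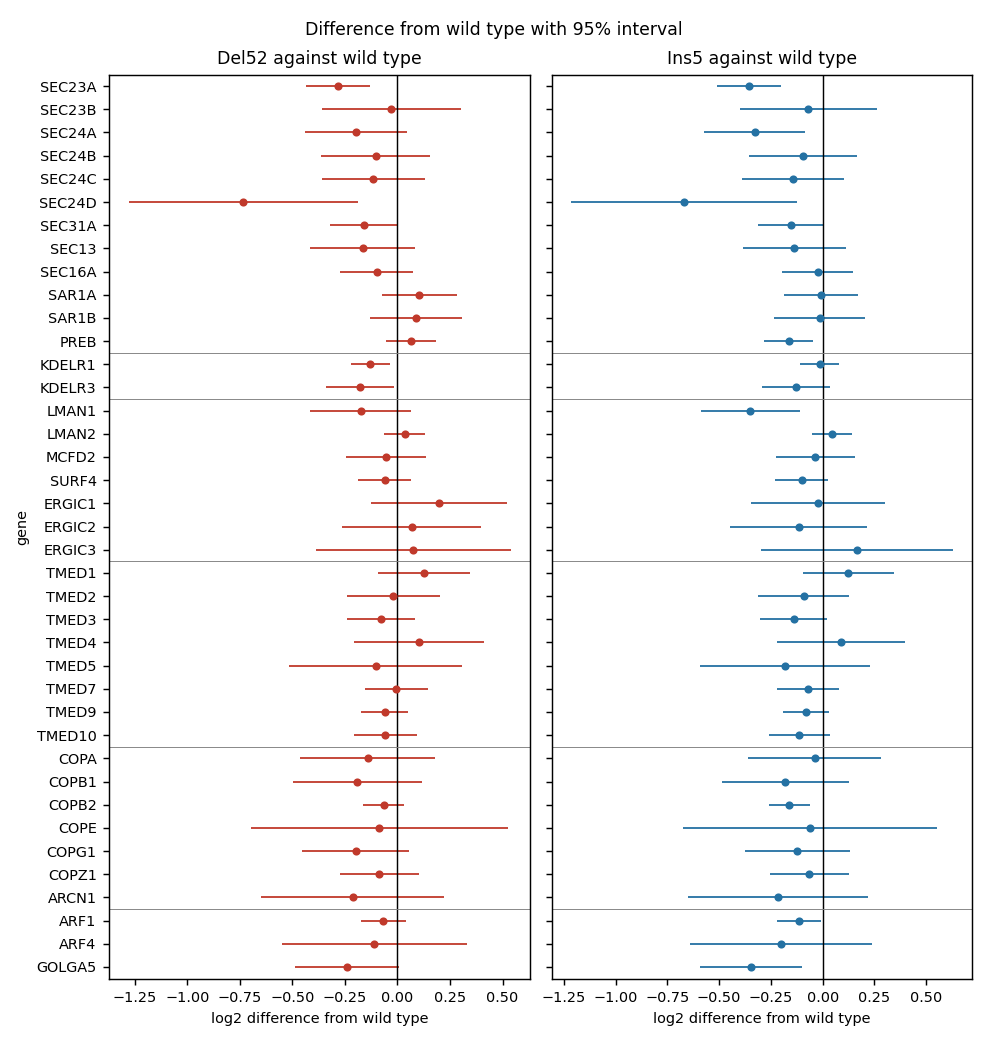
Log2 difference from wild type (horizontal axis) with its 95% interval from limma for each of the 39 genes (vertical axis, grouped by role), for Del52 and Ins5; each group has 3 arrays. The intervals of SEC23A and SEC24D lie below 0 in both panels, all 7 COPI points lie left of 0, and no difference passes after adjustment over 18239 genes.

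By the probe set with the highest mean, all 7 measured COPI subunits were lower than wild type in both mutants. Their medians were -0.14 in Del52 and -0.12 in Ins5, and none passed the test. The arrays overlapped broadly: the median deviation over the 7 was 0.09, -0.09 and 0.23 in wild type, -0.06, 0.06 and -0.14 in Del52, and -0.01, 0.09 and -0.11 in Ins5. COPB2 was the exception in precision. Its wild-type arrays read 7.90, 7.89 and 7.91, the Del52 arrays 7.86, 7.79 and 7.85, and the Ins5 arrays 7.71, 7.80 and 7.71. Every mutant array was below wild type, and 2 of the 3 Ins5 arrays were below every Del52 array. The difference was -0.16 ± 0.04 (SE) for Ins5 (adjusted p = 0.521 by limma), -0.07 ± 0.04 for Del52 (adjusted p = 0.839) and 0.10 ± 0.04 between Del52 and Ins5 (adjusted p = 0.876). A second COPB2 probe set gave -0.30 in Ins5 and -0.07 in Del52.

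The other COPI subunits had wider intervals. ARCN1 (-0.21 in Del52 and -0.22 in Ins5), COPG1 (-0.20 and -0.12), COPB1 (-0.19 and -0.18), COPA (-0.14 and -0.04), COPZ1 (-0.09 and -0.06) and COPE (-0.09 and -0.06) all overlapped with wild type in both mutants. A second COPZ1 probe set, also above the highest antigenomic control, gave -0.07 in Del52 and 0.05 in Ins5. Every Del52 array lay below, and every Ins5 array above, every wild-type array there.

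ARF1, the GTPase that recruits the COPI coat, read 9.99, 9.98 and 10.04 in wild type, 9.97, 9.89 and 9.94 in Del52, and 9.87, 9.96 and 9.84 in Ins5. All mutant arrays lay below all wild-type arrays by a narrow margin. The difference was -0.07 ± 0.05 (SE) for Del52 (adjusted p = 0.855 by limma) and -0.11 ± 0.05 for Ins5 (adjusted p = 0.651). ARF4, a related GTPase, differed by -0.11 and -0.20 and varied far more within groups.

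GOLGA5, a golgin that helps tether vesicles at the Golgi, read 5.59, 5.77 and 5.39 in wild type, 5.37, 5.27 and 5.39 in Del52, and 5.20, 5.12 and 5.39 in Ins5. The third array of each group held the same value, so the lowest wild-type array met the highest of each mutant. The difference was -0.24 ± 0.11 (SE) for Del52 (adjusted p = 0.720 by limma) and -0.35 ± 0.11 for Ins5 (adjusted p = 0.581). GOLGA5 was the only one of the 39 to pass with the first principal component as a covariate: the difference for Ins5 was then -0.35 with adjusted p = 0.0431 and that for Del52 -0.26 with adjusted p = 0.0507. That covariate also brought 19.3% of all genes in Del52 and 19.0% in Ins5 to an unadjusted p under 0.05. Of the 39 genes, 15 had such a p in Del52, 12 of them lower, and 19 in Ins5, 17 of them lower. The covariate was computed from these same arrays.

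Between the mutants the 39 genes differed less. Del52 was above Ins5 for 24 genes and below for 15, with a median difference of 0.03, where 54.6% of all genes were below. An unadjusted p under 0.05 was reached by PREB, higher in Del52 (2.22% of all genes were), and by KDELR1, lower in Del52 (3.55% were). By the probe set with the highest mean, the same 2 genes were the only ones of the set whose Del52 and Ins5 arrays did not overlap, where 3.81% of all genes were higher and 6.28% lower in this way. Among further probe sets without overlap were the other 5 of SURF4, which read 1 gene and are no replicates, with Del52 0.13 to 0.26 above Ins5. The second of COPB2 (0.23), of SEC31A (0.33), of SEC24A (0.19) and of COPZ1 (-0.12) did not overlap either. None passed the limma test over all probe sets.

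The promoters of these genes are given as a description with no test. RefSeq windows (GRCh38.p14, from 250 bases before to 50 after a start) were on hand for 34 of the 40 genes and for 38 soluble proteins of the ER and early secretory pathway. They were searched on both strands for 4 elements, chosen after the levels had been seen. UPRE, TGACGTGG, is the core of an element bound by XBP1 and ATF6. ERSE, CCAAT and CCACG with 9 bases of any kind between them, and ERSE-II, ATTGG and CCACG with 1 base between them, are the ER stress elements of chaperone genes. CRE, TGACGTCA, is the cyclic AMP element. ERSE and UPRE share the letters CCACG or their complement, and 1 UPRE of HYOU1 overlaps with an ERSE-II.

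UPRE letters stood in the windows of 9 of the 34 transport genes (26.5%): SEC23A, SEC24A, SEC16A, KDELR3, COPA, COPB1, COPB2, ARF1 and GOLGA5. Among all 27305 genes with a window, 0.927% held them, and by window the share was 21.3% against 0.729% of 35116. ERSE and ERSE-II were in none of the 34, against 0.0769% and 0.0541% of all windows. Among the ER proteins, 5 of 38 held ERSE (CALR, CRELD2, HSP90B1, HSPA5 and PDIA6), 2 held ERSE-II (HYOU1 and SDF2L1), and 3 held UPRE (DNAJC10, HYOU1 and TXNDC5). CRE was in none of either set, against 1.85% of all windows. The stretches around the UPRE of 7 transport genes are shown with those around the ERSE of 3 chaperones for comparison. Each is on the strand of its gene, 5′ to 3′, with the element in capitals, so that CCACGTCA is a UPRE and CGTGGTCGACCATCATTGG an ERSE on the opposite strand.
SEC23A, chr14:39103232-39103265, minus strand: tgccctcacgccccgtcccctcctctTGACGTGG
SEC24A, chr5:134648580-134648639, plus strand: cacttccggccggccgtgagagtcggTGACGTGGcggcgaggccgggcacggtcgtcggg
KDELR3, chr22:38468024-38468083, plus strand: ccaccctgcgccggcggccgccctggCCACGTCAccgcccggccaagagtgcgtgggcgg
COPB1, chr11:14499826-14499885, minus strand: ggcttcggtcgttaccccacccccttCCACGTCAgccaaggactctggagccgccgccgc
COPB2, chr3:139389810-139389869, minus strand: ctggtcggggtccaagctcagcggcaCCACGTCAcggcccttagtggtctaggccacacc
ARF1, chr1:228082666-228082707, plus strand: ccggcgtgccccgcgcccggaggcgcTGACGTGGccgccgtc
GOLGA5, chr14:92794100-92794159, plus strand: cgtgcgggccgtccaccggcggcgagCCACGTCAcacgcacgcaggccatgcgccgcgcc
HSPA5, chr9:125241365-125241435, minus strand: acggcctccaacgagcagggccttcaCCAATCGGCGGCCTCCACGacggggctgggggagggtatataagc
PDIA6, chr2:10812827-10812897, minus strand: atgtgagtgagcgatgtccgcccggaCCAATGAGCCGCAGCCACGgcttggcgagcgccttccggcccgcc
CALR, chr19:12938359-12938428, plus strand: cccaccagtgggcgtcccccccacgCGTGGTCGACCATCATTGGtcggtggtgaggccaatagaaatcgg

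Some of the genes with the clearest array separation, SEC23A, COPB2 and ARF1, were among those with UPRE letters, and SEC31A, KDELR1 and PREB were not. SEC24D had no window to search. The 9 genes with UPRE letters were lower than wild type in 9 of 9 cases in Del52 (median -0.18) and in 9 of 9 in Ins5 (median -0.16). Of the 25 without, 18 were lower in Del52 (median -0.06) and 22 in Ins5 (median -0.10). Presence of the letters says nothing about whether a factor binds there, and the split was made with the levels known.

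The soluble proteins that this pathway retrieves or carries were more often above wild type than below. Of 39 measured chaperones and other soluble proteins of the ER and early secretory pathway, 26 were higher than wild type in Del52 (median 0.04) and 27 in Ins5 (median 0.09), and none passed the test. The share lower than wild type was 33.3% in Del52 and 30.8% in Ins5, where 45.4% and 40.4% of all genes were lower. Without wild-type array 3, 21 and 23 of the 39 were higher, a weaker lean. Of genes above the median level, 50.5% and 49.0% were then lower. At an unadjusted p under 0.05, 9 were higher and 0 lower in Del52, where 4.1% and 2.95% of all genes were. In Ins5, 6 were higher and 0 lower, against 5.15% and 2.25%. HYOU1, an ER chaperone of the HSP70 kind, was 0.20 higher in Del52 (adjusted p = 0.603 by limma) and 0.23 higher in Ins5 (adjusted p = 0.466), with no overlap. SDF4, a calcium-binding Golgi protein, was higher by 0.12 and 0.13, PDIA6 by 0.22 and 0.19 and MANF by 0.53 and 0.36, all with no overlap. PDIA3, a disulfide isomerase that works with calreticulin, was higher by 0.42 and 0.28 and overlapped with wild type in Ins5. DNAJB11, a co-chaperone, was higher by 0.44 and 0.36 and overlapped in both. Groups did not overlap for 6 of the 39 in Del52 and 5 in Ins5, all higher, where 6.23% and 8.16% of all genes were. Between the mutants the smallest p was that of SUMF2, with a difference of -0.22 (adjusted p = 0.841 by limma).

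The remaining machinery of the route, outside the 40, had medians nearer to 0, though some of these lists also leaned to the lower side. Of all genes, 45.4% were lower in Del52 and 40.4% in Ins5. Of 14 COPII assembly factors, 10 (71.4%) were lower in Del52 and 8 (57.1%) in Ins5 (medians -0.04 and -0.0050), with SEC31B at -0.14 in both. Of 12 COPI regulators and paralogs, 8 (66.7%) were lower in Del52 and 5 (41.7%) in Ins5 (medians -0.03 and 0.04). COPZ2, a COPI paralog, was at -0.20 between Del52 and Ins5. Of 43 tethers, Rab GTPases and SNAREs, 25 (58.1%) were lower in Del52 and 31 (72.1%) in Ins5 (medians -0.03 and -0.04). Of these 43, 4 (9.30%) in Del52 and 5 (11.6%) in Ins5 were lower without overlap, where 4.36% and 3.30% of all genes were. In each mutant 2 were higher without overlap, where 6.23% and 8.16% of all genes were. The SNAREs GOSR2 (-0.14 in both) and BET1 (-0.41 in Del52) and the tether subunit COG6 (-0.37 in Ins5) had the smallest p among those that were lower, and TRAPPC5 was 0.14 and 0.13 higher. None of these passed after adjustment.

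Of 8 transcription factors of secretory genes, 4 were higher and 4 lower in Del52, and 5 higher and 3 lower in Ins5. ATF6B, a paralog of the stress sensor ATF6, read 5.64 ± 0.03 (SD) in wild type, 5.66 ± 0.04 in Del52 and 5.86 ± 0.06 in Ins5. It was 0.22 ± 0.05 (SE) higher in Ins5 than in wild type (adjusted p = 0.466 by limma) and 0.20 lower in Del52 than in Ins5 (adjusted p = 0.841). CREB3 was 0.13 higher in Ins5 and CREB3L4 0.22 lower in Del52, neither past the test.

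For many of the 39 genes, more of the sum of squares lay within groups than between them. With 3 groups and 6 residual degrees of freedom, this is usual even where groups do not differ. Between-group differences made up a median of 27.2% of the sum of squares over the 39 genes, from 1.43% for COPE to 84.5% for SEC23A. The median was 21.3% for all genes and 14.5% for genes above the median level. COPE, the epsilon subunit of COPI, read 8.80, 9.40 and 8.38 in the wild-type arrays, and ERGIC3 read 7.88, 8.20 and 7.43. ARCN1, the delta subunit of the same coat, ran the opposite way at 8.88, 8.59 and 9.31, as did ARF4 at 8.86, 8.49 and 9.23. Wild-type arrays 2 and 3 thus held opposite extremes for subunits of 1 coat. COPB2, by contrast, spanned 0.20 over all 9 arrays.

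**Figure D4:**
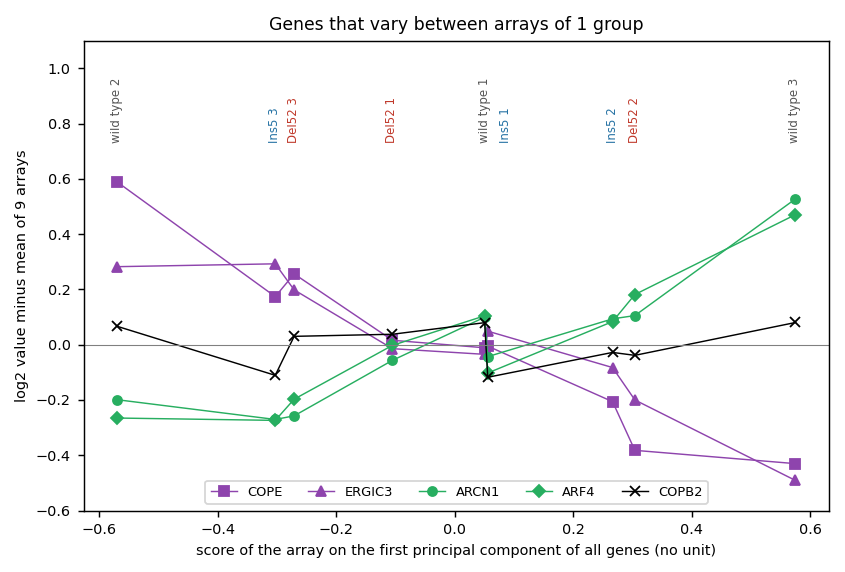
Log2 value minus the 9-array mean (vertical axis) of 5 genes in each array, placed by the array's score on the first principal component of all genes (horizontal axis, no unit). COPE and ERGIC3 are high in wild-type array 2 and low in wild-type array 3, ARCN1 and ARF4 the reverse, and COPB2 spans 0.20; the genes were chosen after their values were seen.

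Wild-type array 3 was the highest of the 9 arrays for 19 of the 39 genes (48.7%) and for 24.0% of genes above the median level. It was the lowest for 5 of the 39 (12.8%) and for 30.8% of genes above the median level. It exceeded wild-type array 2 for 25 of the 39 (64.1%) and for 46.3% of genes above the median level. By role, it did so for 10 of 12 COPII genes, 6 of 7 COPI genes and 2 of 3 ARF and golgin genes. The counts were 4 of 8 for p24 genes, 3 of 7 for cargo receptors and 0 of 2 for KDEL receptors. The 3′ minus 5′ difference of the actin control probe sets, a sign of RNA integrity or labelling, was 1.08 in wild-type array 2, 1.31 in array 3 and 1.39 in array 1, and 1.18 to 1.38 in the mutant arrays. Its part in these levels was not tested.

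Over the 121 probe sets of the 39 genes, 82 were lower than wild type in Del52 and 103 in Ins5, and none passed the test. The share over all probe sets is not given here. By 1 probe set per gene, 45.4% and 40.4% of all genes were lower. Many of the 121 lay below the highest antigenomic control, so their direction may hold little information. Of the 82 probe sets beside those used above, 58 had the sign of their gene's main probe set in Del52 and 73 in Ins5. Probe sets of 1 gene share transcripts and arrays, and are not replicates.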

How the data were processed

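RNA of 9 K562 samples (3 wild type, 3 Del52, 3 Ins5) was measured on Affymetrix arrays. The deposited values are log2 levels per probe set, made by the authors with Partek and RMA per the submitters' processing notes, versions not given in the sources used here. RMA normalizes between arrays, which hides any shift common to all genes. Arrays give no read depth, so their number limits the precision. Array medians lay between 3.73 and 3.76.

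Of 49386 probe sets, 93 controls, 1327 with several symbols and 2713 with none were left out, and 45253 were kept. Gene identifiers of 45172 were found in RefSeq (GRCh38.p14), which changed 0 symbols. The probe set with the highest mean stood for its gene. All arrays entered 1 limma 3.58.1 model (R 4.3.3) with 6 residual degrees of freedom, tested on simulated data first. Contrasts were adjusted by Benjamini-Hochberg over 18239 genes at 0.05.

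The members, the gene lists and the tests were chosen with earlier results of these data known. Values per array are given for the KDEL receptors and, in each comparison, for up to 6 members with an unadjusted p under 0.05 whose groups did not overlap. SEC24A, LMAN1, GOLGA5, COPE, ERGIC3, ARCN1 and ARF4 were added after their values were seen. So were the further probe sets of SURF4, LMAN1, SEC24A, COPB2, COPZ1, SEC31A, TMED2, TMED3 and TMED7. Of the other lists, up to 3 genes with the smallest p are named, besides DNAJB11, MANF and genes with promoter elements. The effect of 13 other choices of normalization, filter, probe set, variance model and arrays is given in the closing section.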

Additional observations from a re-analysis of the deposited data

How the results depend on the processing

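The 24 values of named genes were recomputed 568 times in all over the alternatives, and 547 of these recomputations kept their direction and side of the threshold. The medians over the 39 genes kept theirs in all 95 recomputations. Some recomputations could not move a value: the Ins5 median against wild type stayed at -0.11 whichever Del52 array was left out. Likewise, no wild-type array enters the difference between Del52 and Ins5. Unmoderated variances also leave every difference unchanged, so both counts overstate how far the directions were tested. The difference of KDELR1 between Ins5 and wild type, near 0, turned to 0.0079 under quantile normalization, and leaving out 1 array moved it between -0.038 and 0.0092 (0.00088 without Ins5 array 1, 0.0092 without wild-type array 1). SEC24D turned to 0.064, 0.0031 and 0.034 (Del52, Ins5, both mutants) by its second probe set.

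With unmoderated variances, 2, 9, 1 and 8 genes of all passed (Del52, Ins5, Del52 against Ins5, both mutants against wild type) and 6 in the F test, none of them among the 39. With the first principal component as a covariate, 4, 7 and 68 genes passed in Del52, Ins5 and both mutants and 2 in the F test, among them 1 of the 39 (GOLGA5) in Ins5 and 1 in both mutants. Array weights fitted by REML stopped before convergence with a weight of 67.0 on wild-type array 1. They passed 3190, 4017 and 6232 genes and 5345 in the F test, with 11, 17, 21 and 18 of the 39, and 11 and 12 of the 39 higher in Ins5 and in both mutants. The cause was not tested. Gene-by-gene weights passed 0 genes and left 9 of the 39 higher in Ins5.

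Leaving out 1 array, the genes of the 39 higher in Ins5 numbered 4 to 9, and in no comparison did a gene of all 18239 pass. They numbered 7 without wild-type arrays 2 and 3 together, and 9 without wild-type array 3 and Del52 array 1 (11 for both mutants), choices made after seeing the data. The labels' replicate numbers did not consistently pair the arrays: same-numbered arrays deviated from their group means with correlations from -0.92 to 0.64. Differently numbered arrays of 2 groups gave -0.77 to 0.88. Among the highest were Ins5 array 3 with wild-type array 2 (0.88) and Del52 array 2 with wild-type array 3 (0.87). Some arrays thus shared deviations across groups, which a block on the replicate number does not take up. What they share was not tested. With the replicate number as a block, 0 genes passed, the medians stayed at -0.09 and -0.11, and no call changed. Restricting the fit to the groups compared applies only to the pairwise comparisons.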
